A study of Mus musculus with 24 samples.

Results

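Phosphorylated H2AX (γH2AX) was set against total H2AX in wild-type (WT) cells. The question was where along the autosomes phosphorylation was high or low relative to the amount of the histone that can carry it. The comparison used 4 libraries as its core, 2 of γH2AX and 2 of H2AX, from a series of 24 labelled samples. Bins of 1 Mb on chromosomes 1 to 19 were kept where the mean count over the 4 libraries was at least 100, which left 2414 of 2473 autosomal bins, out of 2738 bins in the deposited table. Of these, 43 held a larger share of γH2AX reads than of H2AX reads (1.78%), and 4 held a smaller share (0.166%). The threshold was an adjusted p under 0.05 in edgeR's quasi-likelihood F test, with Benjamini-Hochberg adjustment over all bins. The calls depended on the libraries. The same test on the WT libraries of the second deposited table called 1 bin (0.0414%), at 39000001 to 40000000 of chromosome 17. There 26 bins had an unadjusted p under 0.05. The log2 ratio kept its direction there in all 47 called bins, though the 2 tables share a library per assay.

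H2AX is a variant of histone H2A that is built into nucleosomes throughout the genome. When DNA breaks on both strands, the kinases ATM, ATR and DNA-PK phosphorylate its C-terminal tail, and the resulting γH2AX spreads over large chromatin domains, where it holds repair factors such as MDC1 and 53BP1. Because only H2AX that is present can be phosphorylated, the ratio of γH2AX to H2AX separates the extent of phosphorylation from the supply of the variant.

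The groups were γH2AX from WT cells, H2AX from WT cells and, as genomic background, input DNA from WT cells, each with 2 libraries. γH2AX and H2AX from SIRT7-KO cells, again 2 libraries each, served for one comparison. All were cells the labels call TTF, an abbreviation they leave unexplained, from female C57BL6/CAST hybrid mice, and every label states 5 Gy of X-rays followed by 30 minutes of recovery, in WT and KO alike. The columns that carry the counts end in NT or Xray instead, so the libraries are named here by those endings and were treated as replicates of one group, as the labels have them. The labels do not explain NT. If it stands for cells that were not treated, the spread between libraries, and with it every SE and p-value here, includes a difference of treatment, and a contrast of the NT-named with the Xray-named pair is one of treatment too. The second table holds WT replicates 1 and 2 of each assay, of which replicate 2 is the NT-named library again, and replicate 1 a pair of its own. The 2 tables thus hold 3 distinct WT libraries per assay where the labels give 2 samples, and the Xray-named library matches its group by name but no single sample. The labels do not tie replicates to separate cultures, and the p-values therefore reflect only how far these libraries vary, which may be technical. Counts of genomic DNA cannot check the labelled cell type by marker genes.

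The γH2AX libraries held 248337642 and 251858055 reads and the H2AX libraries 180868816 and 207369934, with medians of 60771 to 87102.5 reads per tested bin, so counting error was small. Levels are given as reads per 1000000 autosomal reads (RPM), without the bin 39000001 to 40000000 of chromosome 17. Each library was scaled to its own total, so a change of γH2AX over the whole genome would not appear in the ratio. More cells carrying γH2AX at a site and more γH2AX per cell cannot be told apart. A set of 5 autosomal bins each took over 0.5% of the reads of a library, together 11.6% and 9.18% of γH2AX reads (NT-named and Xray-named) against 10.8% and 9.88% of H2AX reads. The largest, 98000001 to 99000000 of chromosome 2, held 6.53% and 5.36% of γH2AX reads against 6.61% and 6.03% of H2AX reads. Sirt7 (chromosome 11, 120618371 to 120625014, mm10) lies in a bin with 550 and 610 RPM of γH2AX in WT and 272 and 298 in KO, while H2AX held 561 and 591 RPM in WT and 291 and 291 in KO, and bins of this size do not resolve the deletion itself. In that bin γH2AX and H2AX of WT cells stood at a log2 ratio of 0.0095 (SE 0.070, adjusted p = 0.949, edgeR).

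γH2AX followed H2AX closely over most of the genome. The log2 ratio lay within 0.1 of 0 in 1768 of 2414 bins (73.2%), and its interquartile range was -0.067 to 0.058. The 2 γH2AX libraries lay above both H2AX libraries in 639 bins (26.5%) and below both in 748 (31.0%), and all 47 called bins (1.95%) were among them. Called bins rose more often than they fell, and the sizes were unequal: increases reached 3.89 on the log2 scale, and no called decrease exceeded 0.31. Without adjustment, 549 bins had a p under 0.05. Called bins lay on all 19 autosomes, and the longest runs were 6 pairs of adjacent bins, all higher.

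**Figure D1:**
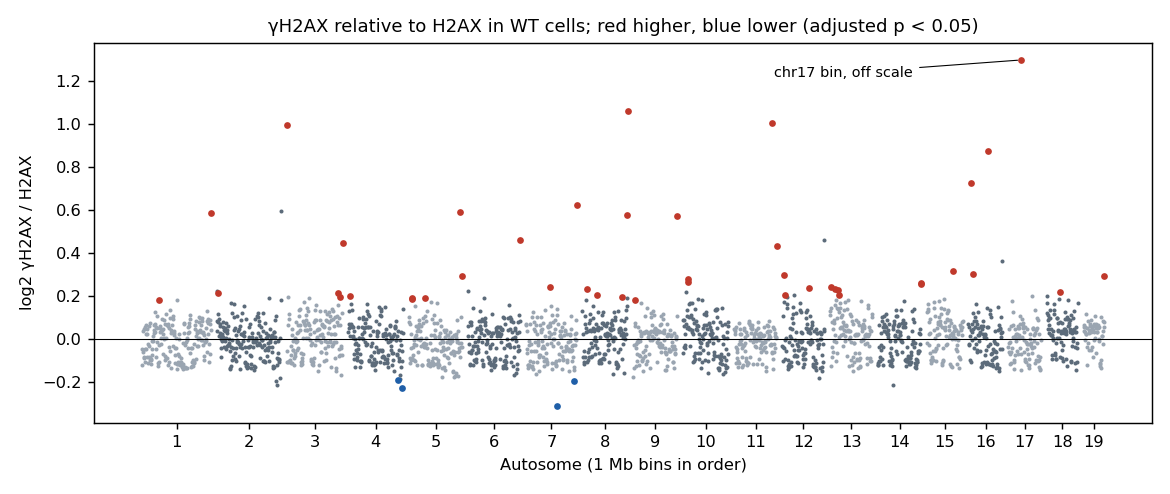
Each point is a 1 Mb bin, in order along chromosomes 1 to 19, and the vertical axis gives the log2 ratio of γH2AX to H2AX in WT cells (2 libraries each). Red bins are the 43 that rose and blue bins the 4 that fell; the chromosome 17 bin at 3.89 is drawn at the upper edge.

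By position and by reads per parental genome, the 43 higher bins fell into 4 kinds, defined after their values were seen. In 8 bins, the log2 ratio was below 0.1 in reads assigned to each parental genome. In 12, the bin was the last or second last tested bin of its chromosome. Another 2 had a ratio above 0.1 in reads of genome2 and below 0.1 in those of genome1. The remaining 21 rose by 0.18 to 0.30 on the log2 scale, with ratios above 0.1 in reads of both genomes. The counts per parental genome come from the 2 WT libraries per assay of the second table, whose replicate 2 also served in the calls. How reads were assigned is not given in the sources used here, nor do the labels say which parent genome1 and genome2 are. In edgeR's test these reads called 0 bins higher for genome1 (0%; 30 at an unadjusted p under 0.05) and 1 for genome2 (0.0415%; 28 at an unadjusted p under 0.05), so ratios per genome are given as values.

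The strongest excess lay at 39000001 to 40000000 of chromosome 17. The bin spans Esp38, Esp15, Esp16 and Esp18, of a family of secreted peptides used as pheromones, and Rn18s-rs5, a copy of the 18S ribosomal RNA. γH2AX held 10647 and 5283 RPM there (NT-named and Xray-named libraries), against 541 and 532 RPM of H2AX and 624 and 633 RPM of input. Both γH2AX libraries stood far above every H2AX and input library, with the NT-named one the higher. The log2 ratio was 3.89 (SE 0.233, adjusted p = 7.34e-11), and 4.30 in replicate 1 of the second table. Only 0.863% and 0.985% of the γH2AX reads of this bin had been assigned to a parental genome in replicates 1 and 2, against 19.8% and 20.6% of the H2AX reads. Among assigned reads the ratio was -0.11 for genome1 and -0.10 for genome2, so the excess consisted of reads without a parental assignment.

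The same pattern marked interior bins on other chromosomes, each flanked by bins that were not called. On chromosome 11, the bin 109000001 to 110000000 (the lysosomal sulfatase gene Arsg, the G-protein regulator gene Rgs9, Abca8b and Fam20a) held 1033 and 773 RPM of γH2AX against 441 and 456 RPM of H2AX. Both γH2AX values exceeded both H2AX values, and input, at 429 and 430 RPM, lay near H2AX. Its log2 ratio was 1.01 (SE 0.0934, adjusted p = 1.26e-07), yet 0.076 in reads of genome1 and 0.073 in reads of genome2. Assigned reads made up 38.7% of γH2AX in the bin, against 77.3% of H2AX, in replicate 1. Over all bins the medians were 63.9% and 64.1% in γH2AX and 67.3% and 64.9% in H2AX.

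On chromosome 16, 57000001 to 58000000 (Cmss1, Filip1l, the collagen gene Col8a1 and Tbc1d23) held 815 and 643 RPM of γH2AX against 404 and 390 RPM of H2AX, a log2 ratio of 0.88 (SE 0.0832, adjusted p = 1.56e-07). Farther up the same chromosome, 11000001 to 12000000 (the sorting nexin gene Snx29, Cpped1, Txndc11 and Zc3h7a) held 824 and 703 RPM against 454 and 469 RPM, a ratio of 0.73 (SE 0.0755). On chromosome 5, 146000001 to 147000000 (the actin regulator gene Wasf3 and the Mediator kinase gene Cdk8 among others) held 738 and 580 RPM against 422 and 451 RPM, a ratio of 0.59 (SE 0.0834). In all of these the NT-named γH2AX library was the higher. No library of one assay overlapped the other, as in all 47 called bins (26.5% of all bins were higher without overlap). The others of this kind were smaller: 75000001 to 76000000 of chromosome 15 (Zc3h3, Top1mt; ratio 0.32), 78000001 to 79000000 of chromosome 12 (Gphn, the inhibitory-synapse scaffold gephyrin; 0.24) and 15000001 to 16000000 of chromosome 8 (Myom2, Kbtbd11; 0.23). The γH2AX to H2AX ratio was larger in the NT-named than in the Xray-named pair in 7 of these 8 bins. The exception was that of chromosome 15, and over all bins the count was 1206 of 2414. Against input, γH2AX was called higher in 7 of the 8 (24.0% of all bins), while H2AX lay from -0.23 to 0.23. Without the Xray-named or the NT-named H2AX library 5 of the 8 calls remained, and those of chromosomes 15, 12 and 8 did not.

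**Figure D2:**
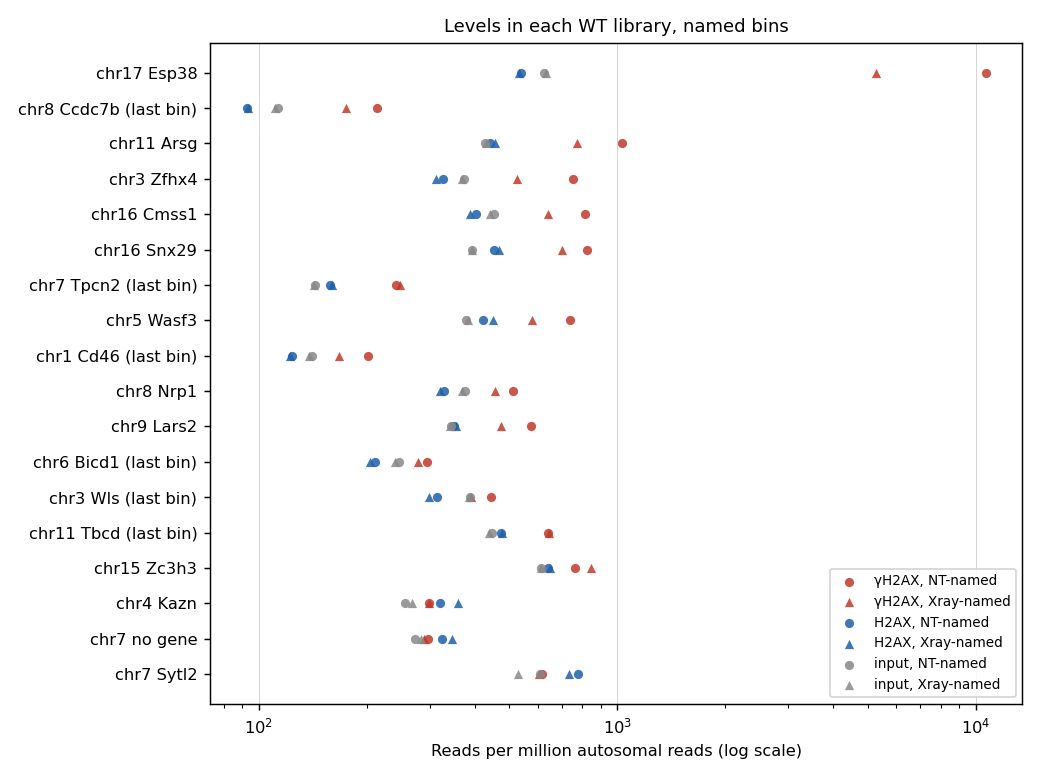
RPM, on a log scale, of the 18 named bins in each WT library of γH2AX (red), H2AX (blue) and input (grey), with circles for NT-named and triangles for Xray-named libraries. In the upper 15 bins both red points lie right of both blue points, and in the lower 3 left of them, as the choice of named bins required.

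The bin 5000001 to 6000000 of chromosome 3 (the zinc-finger homeobox gene Zfhx4 and the peroxisome gene Pex2) stood between the patterns. It held 753 and 524 RPM of γH2AX against 327 and 312 RPM of H2AX, a log2 ratio of 1.00 (SE 0.0986, adjusted p = 2.78e-07). Reads of genome1 gave -0.0025 and reads of genome2 0.49, both less than all reads of the same libraries (1.23). Assigned reads made up 27.9% and 28.6% of γH2AX in replicates 1 and 2, against 60.3% and 58.3% of H2AX.

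Distal chromosome ends tended to hold a larger share of γH2AX reads than of H2AX reads. Mouse chromosomes carry their centromere at one end, so the last bin is the telomeric end of the long arm. Of the 19 last tested bins, 18 had a log2 ratio above 0 and 9 were called higher, with a median of 0.30. Over all bins, 1260 of 2414 lay above 0 and 1.78% were called higher. Of the second last bins 3 were called (median 0.079), and of the next 3 bins inward none was higher and 1 was lower. Of the 19 first tested bins, next to the centromere, none was called, with a median of 0.058 and 12 of 19 above 0. The last-bin medians were 0.34 in the NT-named pair, 0.27 in the Xray-named pair and 0.41 in replicate 1 of the second table.

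The largest of them, on chromosome 8, spans 129000001 to 129401213 and the genes Ccdc7b and Ccdc7a. γH2AX held 214 and 175 RPM there, against 92.7 and 93.4 RPM of H2AX and 113 and 111 RPM of input. γH2AX thus lay above input and H2AX below it, and the groups did not overlap. The log2 ratio was 1.06 (SE 0.0765, adjusted p = 1.71e-09), with 2.04 in genome1 and 0.68 in genome2. The bin before it, which starts at 128000001 (the semaphorin and VEGF co-receptor gene Nrp1 and the integrin subunit gene Itgb1), held 511 and 456 RPM against 328 and 320 RPM, a ratio of 0.58 (SE 0.0611, adjusted p = 7.41e-07), again larger in genome1 (0.97) than in genome2 (0.28). The difference between the parental genomes was not tested.

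The last bin of chromosome 7, 145000001 to 145441459 (the lysosomal channel gene Tpcn2, Mrgprd, Mrgprf and Smim38), had 242 and 248 RPM of γH2AX against 158 and 160 RPM of H2AX, a log2 ratio of 0.63 (SE 0.0536, adjusted p = 3.52e-08). That of chromosome 1, 195000001 to 195471971 (the complement genes Cd46, Cr2 and Cr1l), had 202 and 168 RPM against 124 and 122 RPM, a ratio of 0.59 (SE 0.0729, adjusted p = 9.24e-06). Here too every γH2AX value exceeded every H2AX value, by a margin wider than the gap between libraries of one assay. The last bins of chromosomes 6 (the dynein adaptor gene Bicd1; 0.46), 3 (the Wnt secretion gene Wls; 0.45), 19 (Csf2ra; 0.30), 5 (Stard13; 0.29) and 14 (Fgf14; 0.26) were called as well. The second last bin of chromosome 14 (the sodium leak channel gene Nalcn; 0.26) was the partner of the last in a run of 2, and that of chromosome 9, 123000001 to 124000000 (Lars2, a mitochondrial leucyl-tRNA synthetase), had a ratio of 0.57 (SE 0.0692). In the chromosome 9 bin, reads of genome1 gave 0.031 and reads of genome2 0.19, and the assigned share was 48.6% and 44.6% in γH2AX of replicates 1 and 2 against 71.5% and 68.2% in H2AX.

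The last bin of chromosome 11, 121000001 to 122000000 (the tubulin cofactor gene Tbcd, B3gntl1, Foxk2 and Rab40b), held 642 and 645 RPM of γH2AX against 475 and 476 RPM of H2AX, a log2 ratio of 0.43 (SE 0.0644, adjusted p = 0.000129). In contrast to chromosome 8, the ratio was larger in genome2 (0.69) than in genome1 (0.15), a difference that was not tested. Its call was lost without either H2AX library, with an adjusted p of up to 0.139. The end of chromosome 2, a last bin of 113224 bp, had a ratio of 0.60 that did not pass (SE 0.300, adjusted p = 0.235). The lowest last bin was that of chromosome 17, at -0.0014. Of the 12 called bins at distal ends, 9 remained without the NT-named and 7 without the Xray-named H2AX library.

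**Figure D3:**
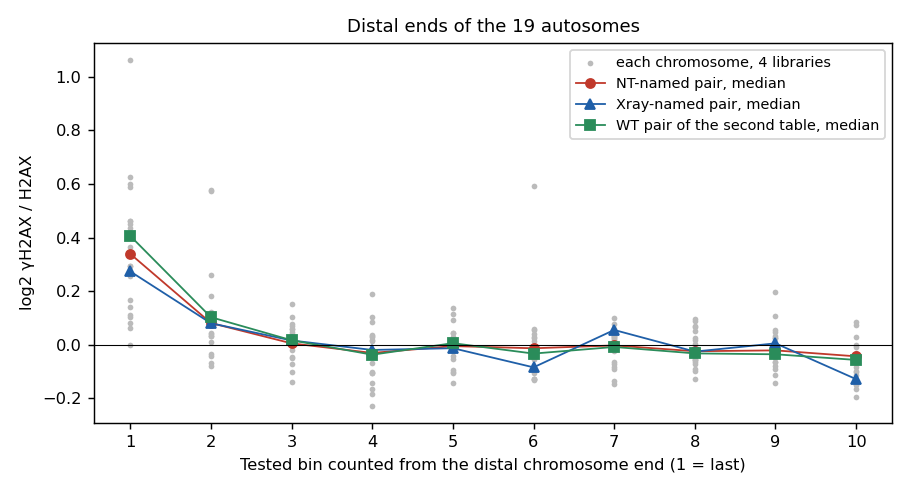
Log2 ratio of γH2AX to H2AX in WT cells at the 10 tested bins nearest the distal end of each autosome. Grey points are single chromosomes from the 4 libraries, and lines give medians over 19 chromosomes in each library pair, which stand at 0.34 (NT-named), 0.27 (Xray-named) and 0.41 (second table) in the last bin, against 0.0056, 0.016 and 0.017 in the third last.

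The 21 remaining higher bins were poor in H2AX relative to input. H2AX was called below input in 21 of 21 (41.3% of all bins), with log2 values of -0.65 to -0.16, whereas γH2AX ranged from -0.37 to 0.059, lay above input in 2 of the 21, and was called below input in 14 (31.3% of all bins) and above it in none. The ratio and the H2AX values share the H2AX libraries and are therefore not independent. These bins held few genes, with a median of 2 protein-coding genes against 5 over all bins, and 5 of the 21 held none. The NT-named pair gave the larger ratio in 4 of 21, against 7 of the 8 bins with unassigned reads and 1206 of all 2414 bins. A difference between these kinds of bin was not tested.

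Among them, 16000001 to 17000000 of chromosome 10, without a protein-coding gene, had a ratio of 0.28 (SE 0.0591, adjusted p = 0.00849), with γH2AX at -0.37 and H2AX at -0.65 against input. The next bin, with the transcriptional co-regulator gene Cited2, had 0.27. On chromosome 12, 9000001 to 10000000, with the developmental transcription factor gene Osr1, had 0.30 (SE 0.0557, adjusted p = 0.00281) and the next bin 0.21. Other bins of this kind held Klf6 (0.24) and the activin subunit gene Inhba (0.24) on chromosome 13, the nuclear receptor gene Nr2f2 on chromosome 7 (0.24), the glucocorticoid receptor gene Nr3c1 on chromosome 18 (0.22) and the atypical cadherin gene Fat1 on chromosome 8 (0.21). The axon guidance genes Sema3d and Sema3a occupied adjacent called bins on chromosome 5, with a mean of 0.19, and the prolactin family (Prl3a1, Prl7a2 and others) the second of a pair on chromosome 13, with a mean of 0.22. Ratios lay at 0.12 to 0.35 in genome1 and 0.12 to 0.34 in genome2, where values above 0.1 were part of how these bins were grouped. In replicate 1 of the second table they ranged from 0.14 to 0.40. These calls were lost without the NT-named and also without the Xray-named H2AX library. Fits without a γH2AX library cannot decide whether the calls hold, because their spread rests on the H2AX pair, which varied less.

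In the 4 bins where γH2AX fell below H2AX, H2AX was high against input, at 0.27 to 0.47, and was called above it in 4 of 4 (34.7% of all bins). γH2AX lay above input too, at 0.074 to 0.25, and was called above it in 2 of 4 (24.0% of all bins). As for the higher bins, the ratio and the H2AX values share the H2AX libraries and are not independent. The lowest was 90000001 to 91000000 of chromosome 7, with Sytl2 and the clathrin assembly gene Picalm and overlapping the synaptic scaffold gene Dlg2. It held 619 and 604 RPM of γH2AX against 779 and 734 RPM of H2AX and 611 and 528 RPM of input, a log2 ratio of -0.31 (SE 0.0697, adjusted p = 0.0162). The bin 136000001 to 137000000 of chromosome 7, without a protein-coding gene, stood at -0.19, as did 142000001 to 143000000 of chromosome 4, with Kazn and Tmem51. The levels of the assays did not overlap in any of the 4, as in all 47 called bins. Of all bins, 31.0% were lower without overlap. Leaving out the NT-named H2AX library kept 1 of these calls and leaving out the Xray-named one kept 0.

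Reads of a single parental genome also showed an excess where all reads did not. The bin called in genome2 was 73000001 to 74000000 of chromosome 2 (Chn1, Ola1, Wipf1 and Atf2), named after its values were seen. The authors' counts there were 2669 and 5299 reads of genome2 in γH2AX of replicates 1 and 2, against 198 and 362 in H2AX. Reads of genome1 numbered 26825 and 46226 in γH2AX, against 18388 and 34528 in H2AX. Reads of genome2 were thus scarce in both assays, and its ratio rests on a small H2AX count. The log2 ratio was 3.33 in genome2 (adjusted p = 0.0113, edgeR) and 0.0026 in genome1, and in all reads of the first table it was 0.12 (adjusted p = 0.156). Whether the genomes differed was not tested.

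**Figure D4:**
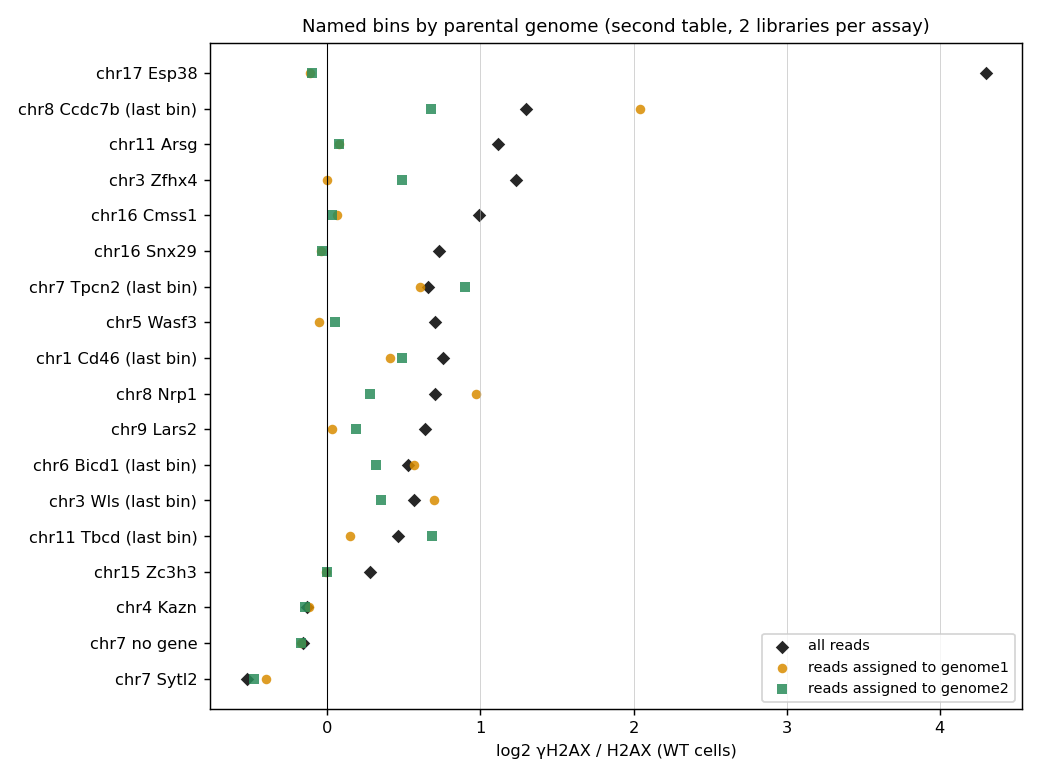
Log2 ratio of γH2AX to H2AX in WT cells for the 18 named bins, from all reads (diamonds), reads assigned to genome1 (circles) and reads assigned to genome2 (squares), in the second table. Interior bins such as that of chromosome 11 with Arsg were grouped by ratios below 0.1 in assigned reads, and there these ratios lie near 0. At the last bins of chromosomes 8, 7, 6 and 3 the assigned reads lie at 0.32 or above in both genomes.

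Along with gene number the ratio shifted slightly, and differently in the library pairs. The 272 bins without a protein-coding gene had a median log2 ratio of -0.10, and the 242 gene-rich bins (21 or more protein-coding genes, assigned by gene midpoint) had 0.027. Calls were about as frequent in both as over all bins (1.95%), with 5 higher and 1 lower in gene-free bins (2.21%) and 4 higher and 0 lower in gene-rich bins (1.65%). The gene-free bins lay below 0 in every pair, at -0.060 in the NT-named, -0.14 in the Xray-named and -0.050 in replicate 1 of the second table. The gene-rich bins did not keep a direction: their medians were -0.026, 0.082 and -0.034 in the same pairs. Spearman's rho between gene number and the ratio, over bins that share their libraries, was 0.087 in the NT-named, 0.467 in the Xray-named and 0.027 in the second-table pair. In KO cells it was -0.29 in the NT-named and 0.48 in the Xray-named pair. A positive relation of this size was thus seen in the Xray-named libraries of both genotypes and not in the other pairs.

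**Figure D5:**
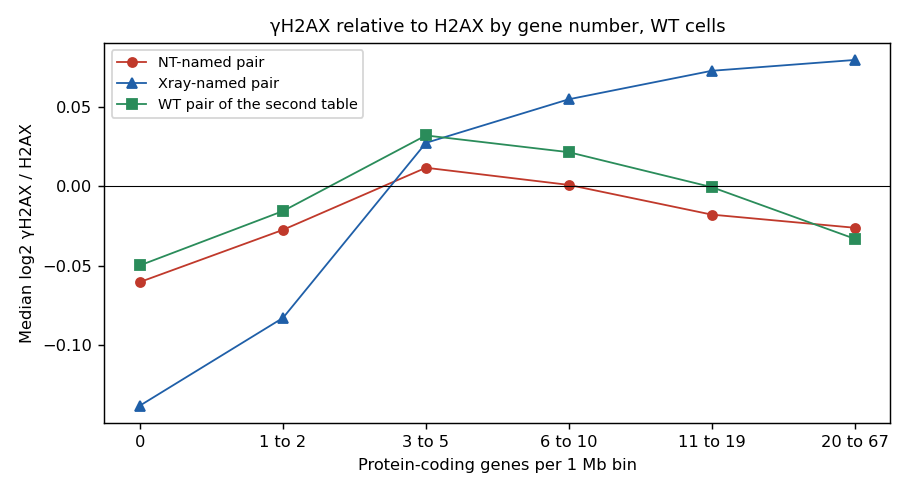
Median log2 ratio of γH2AX to H2AX in WT cells by the number of protein-coding genes per 1 Mb bin, for the NT-named, Xray-named and second-table pairs. All lines start below 0 in gene-free bins, and in the most gene-rich bins the Xray-named pair lies at 0.080 and the others below 0.

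At this resolution, bins of DNA damage response genes had a median close to that of all bins. Of 25 such bins none was called, with a median of 0.016 beside 0.0058 over all bins. With 1.95% of all bins called, lists of this size can hold no call without standing apart. H2ax itself lay in a bin with a log2 ratio of 0.028 (SE 0.0636, adjusted p = 0.819). The bin of Prkdc, the catalytic subunit of DNA-PK, had 0.12 (SE 0.056, adjusted p = 0.200), that of Trp53bp1, which encodes 53BP1, 0.068, and those of the kinase genes Atm and Atr 0.0155 each. In the NT-named pair alone the bins of H2ax, Atm and Atr lay below 0, at -0.068, -0.014 and -0.033. None of 16 bins of p53 target genes was called either (median 0.065), the nearest being Trp53inp1 at 0.16 (SE 0.0497, adjusted p = 0.104). In this list the NT-named pair had a median of -0.0042 and the Xray-named pair 0.12.

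Immediate-early genes, which are induced within minutes of a stimulus, occupied 9 bins, and none passed. All 9 had a ratio above 0 (median 0.090), as did 1260 of all 2414 bins and 175 of the 242 gene-rich bins. The median was 0.025 in the NT-named pair, 0.14 in the Xray-named pair and 0.019 in replicate 1 of the second table. Jun had the smallest p, with 339 and 360 RPM of γH2AX against 324 and 315 RPM of H2AX, a log2 ratio of 0.13 (SE 0.0476, adjusted p = 0.156). No bin was called among 13 of fibroblast genes (median 0.069), 17 of housekeeping genes (0.043), 17 of genes of other tissues (0.024), 13 imprinted (0.029), 54 olfactory receptor (-0.028), 21 zinc-finger (0.022), 4 histone cluster (0.14), 5 Hox (0.081), 6 keratin (0.016) and 3 major urinary protein bins (-0.097). Over all bins 1.95% were called, so lists this short can hold no call without standing apart. Of 56 bins over long genes at fragile sites, 17 lay above 0, with a median of -0.088. In that list 1 was called higher, the bin 15000001 to 16000000 of chromosome 8 that Csmd1 overlaps. The other listed bins of Csmd1 lay at -0.11 and -0.095. The 1 called lower was 90000001 to 91000000 of chromosome 7, which Dlg2 overlaps. The other listed bins of Dlg2 lay at 0.11 and 0.069. Of 34 vomeronasal receptor bins 1 was higher, the last bin of chromosome 5, with a list median of -0.079. Chromosomes that carry ribosomal DNA arrays (12, 15, 16, 18 and 19) had 9 of 462 bins higher (1.95%, against 1.78% over all bins), with a median of 0.025. The first 5 bins of the chromosomes had 5 of 95 higher, and the last 5 had 12 higher and 1 lower.

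Whole chromosomes differed little. No chromosome of 19 passed (0%) in edgeR's test on summed counts, with 3 at an unadjusted p under 0.05 and log2 ratios from -0.038 (chromosome 9) to 0.041 (chromosome 18). Chromosome 18 had 2.92% and 2.92% of autosomal γH2AX reads against 2.82% and 2.86% of H2AX reads (SE 0.0094, adjusted p = 0.165). Chromosomes 2, 9 and 14 had the lowest values, at -0.036, -0.038 and -0.033, and each holds at least 1 of the bins that took over 0.5% of reads. With such bins left out of the totals and the sums, they stood at -0.012, -0.0049 and -0.011, an alternative chosen after seeing the data.

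The WT calls kept their direction in KO cells, but not always their size. The 43 higher and 4 lower bins had the same direction in both KO pairs and in replicate 1 of the second table, in which 48.8% of all bins were above 0. How many of all bins keep a direction in both KO pairs was not counted. In KO the log2 ratio of the 43 ranged from 0.076 to 4.80. The ratio was larger in WT than in KO in both pairs in 26 of the 43, and smaller in 13. In a fit of KO alone 5 bins passed (0.207%), 3 of them among the 43, and 7 of 19 chromosomes (36.8%). The difference between WT and KO passed in 0 of 2414 bins (0%; edgeR, 33 at an unadjusted p under 0.05) and in 0 of 19 chromosomes (0%; 0 at an unadjusted p under 0.05). DESeq2 was not run for this difference. The ratio was smaller in WT than in KO in both pairs of libraries in 8 of the 8 bins with unassigned reads, as in 976 of all 2414 bins, and larger in 19 of the 21 remaining higher bins, as in 765 of all 2414. The bins were picked for a high WT ratio in the same WT libraries, which favours a larger ratio in WT, so all bins are not an even reference. These counts are a description, since no bin passed the test of the difference.

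Bins at the ends of chromosomes 8, 11 and 13 had the lowest adjusted p in that comparison. The last bin of chromosome 8 had a WT minus KO log2 difference of 0.95 (SE 0.138, adjusted p = 0.164). There γH2AX of KO cells held 130 and 114 RPM against 114 and 113 RPM of H2AX. The difference was 0.48 in the bin before it and 0.32 in the last bin of chromosome 11, both at adjusted p = 0.164. In that chromosome 11 bin WT held 642 and 645 RPM of γH2AX against 271 and 276 in KO, and 475 and 476 RPM of H2AX against 251 and 253 in KO. KO levels were thus lower in both assays, and the copy number of the region was not examined. In the last bin of chromosome 13, where WT had a ratio of 0.10 and KO 1.11, it was -1.01 (SE 0.157, adjusted p = 0.164). With all 12 libraries sharing the spread, these bins passed, at adjusted p of 0.0230, 0.0233, 0.00557 and 0.0236 in the same order.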

How the data were processed

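The authors deposited raw read counts per 1 Mb bin (mm10, per the submitters' processing notes), in all reads and in reads assigned to each parental genome. Reads per genome were taken from the second table, whose column names match single samples. The notes name Bowtie2 2.2.9, Trimmomatic 0.36, SAMtools 0.1.19, MACS2 2.2.7.1, deepTools 2.4.2 and FastQC 0.11.3 without their roles. How the counts treat reads that map to several places is not given in the sources used here, which bears on bins with repeats. Of the per-sample columns, 118 were not used. In the second table, the WT libraries of replicate 2 were identical to the NT-named ones in 2738 of 2738 bins and were counted once.

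Counts were tested with edgeR 4.0.16 (R 4.3.3), using glmQLFit and glmQLFTest on the 4 WT libraries, with autosomal totals without the chromosome 17 bin as library sizes, a mean count minimum of 100 and Benjamini-Hochberg adjustment at 0.05. DESeq2 1.42.0 was an alternative; summaries used Python 3.11.15 and pandas 2.3.3. The scripts were tested on simulated data. WT minus KO was tested as a difference of differences over 8 libraries. Genes were placed in bins by midpoint from the RefSeq table of GRCm38.p6, except long genes at fragile sites, which could be listed in several bins. Bins were named as the 15 with the largest and 15 with the smallest difference past the threshold whose libraries did not overlap, the longest runs, the chromosome 17 bin and up to 4 genes per list by smallest p. Other called bins, H2ax, Trp53bp1, Atm and Atr were named after their values were seen. Of the called bins 2 are counted in every total but not reported singly here. The members and lists were chosen with earlier results of these data known.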

Additional observations from a re-analysis of the deposited data

How the results depend on the processing

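The number of higher and lower bins depended on the fit, against 43 higher and 4 lower. TMM factors gave 63 higher and 7 lower, DESeq2 size factors 71 and 20, and the DESeq2 Wald test 238 and 169. All 12 libraries sharing the spread gave 224 and 64, with 3 chromosomes past the threshold. Leaving out 1 library gave 13 to 699 higher and 0 to 610 lower bins. Without a γH2AX library the spread rests on the H2AX pair, which varied less (SD of the log2 NT over Xray ratio 0.0466, against 0.101 in γH2AX), and the lone sample is assumed to vary like the others. Of the 43 higher bins 13 were called in every one of these 4 fits, and of the 4 lower bins 0. In the second table, chosen after seeing the data, all reads called 1 bin higher and 0 lower, reads of genome1 0 and 0, reads of genome2 1 and 0 and their sum 0 and 0. The planned fits on the first table's reads per genome were not run, because those columns match a group and no single sample. Totals without the bins over 0.5% of reads, chosen after seeing the data, gave 15 lower bins. WT minus KO gave 5 bins with all 12 libraries and 0 to 2 without 1 library. The cause of these changes was otherwise not tested.

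The column names pair the samples in name only. The deviations of γH2AX and H2AX correlated at 0.441 across bins, from 2 pairs. With the name as a replicate block, 99 bins were higher and 51 lower, and 3 passed in WT minus KO.

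Among the called bins, direction reversed in assigned reads only. In genome1, genome2 and their sum, the chromosome 17 bin gave -0.11, -0.10 and -0.11, that at 11000001 of chromosome 16 -0.043, -0.032 and -0.034, and that at 75000001 of chromosome 15 -0.0085, -0.0050 and -0.0062. Genome1 gave -0.0025 at 5000001 of chromosome 3 and -0.055 at 146000001 of chromosome 5. Genome1 and the sum gave -0.043 and -0.0050 at 78000001 of chromosome 12, and genome2 -0.011 at 15000001 of chromosome 8.

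With 2 libraries per group, precision was limited by the spread between libraries and not by depth. Among the last bins of chromosomes, the 3 shortest had the widest errors (SE 0.117 to 0.300).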
